A study of Mus musculus with 28 samples.

Results

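The B cell identity and receptor genes described here are a list of 35 genes that splenic B cells are known for, chosen by name: parts of the B cell antigen receptor and its signalling chain, surface co-receptors, homing and survival receptors, and transcription factors. Of these, 33 had a probe set on the array that named that gene alone, out of 18193 genes with such a probe set, and the other 2 were not analysed here. Each gene was read from its probe set with the highest mean. The list was chosen with earlier results of these data known.

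RNA from mouse spleen was hybridised to 28 arrays, 1 sample per array, in 12 groups and 2 experiments. The study asked what dietary abscisic acid (ABA), a plant hormone given as a feed supplement, does to the spleen transcriptome of mice challenged with lipopolysaccharide (LPS), a bacterial cell wall component sensed by Toll-like receptor 4. The experiment with both genotypes had 16 arrays in 8 groups of 2. Its null mice were PPARg flfl; MMTV-Cre+, with LPS on ABA or control diet and without LPS on ABA or control diet, and its wild-type mice were PPARg flfl; MMTV-Cre- in the same 4 conditions. The wild-type-only experiment had 12 arrays of PPARg flfl; MMTV-Cre- mice in 4 groups: ABA with LPS (4 arrays), control diet with LPS (4 arrays), ABA without LPS (2 arrays) and control diet without LPS (2 arrays). All mice, wild type included, carried the floxed Pparg alleles, and the recombinase of the null mice was driven by the MMTV promoter. The labels place the deletion in epithelial and immune cells in one field and in spleen in another. The dose and duration of LPS and the sex and age of the mice are not in the labels used here. The labels speak both of splenocytes and of homogenised tissue.

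B cells recognise antigen through a surface immunoglobulin that signals by way of the Cd79a and Cd79b chains, the kinases Blk, Syk and Btk, the adaptor Blnk and the phospholipase Plcg2. Surface receptors such as Cr2 and Cd22 raise or lower that signal, Cxcr5 guides B cells into follicles, and Tnfrsf13c (the BAFF receptor) keeps mature B cells alive. The factors Pax5, Ebf1, Spib and others hold the B cell programme in place.

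Levels are log2 expression values, so a difference of 1 is a doubling. The values of the experiments end at different lowest levels, so they were treated as normalised apart, and no level is set across them. Each experiment was fitted alone with limma, and a gene was called when its p, adjusted by Benjamini-Hochberg over all genes tested, was under 0.05. Whether the arrays of a group stand for different mice is not in the labels, so a p-value here reflects the spread of these samples alone, which may be technical. The small number of arrays limits the precision. In bulk spleen RNA, fewer B cells, less RNA per B cell and a change in RNA of these genes from other cells cannot be told apart.

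Pparg itself read between 2.45 and 3.31 in null mice without LPS and between 2.45 and 3.56 in wild-type mice without LPS, near the lowest value of 2.24 in that experiment, so its probe set could not check the genotype. Arrays correlated at 0.942 or more within the experiment with both genotypes and at 0.952 or more within the wild-type-only experiment. The pancreas gene Cpa1 was high on 4 arrays, at 6.19 to 13.50. In the wild-type-only experiment these were control diet LPS replicate 2 and control diet no-LPS replicate 1. In the other experiment they were replicate 2 of both null groups without LPS. Of the markers of the B lineage, Ms4a1 (CD20) lay between 11.98 and 13.88 in the experiment with both genotypes and between 9.87 and 11.44 in the wild-type-only experiment. Not every marker could be read: Pax5 stayed close to the lowest level on all 16 arrays with both genotypes, and Vpreb3 on all 12 of the other experiment.

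Promoter sequences are shown for 3 genes whose values the results below turn on, and, as short windows, for 3 genes that carry a B cell motif. A RefSeq promoter (GRCm38.p6, 250 bases before to 50 after the start) was found for 29 of the 33 genes, with none in the table for Cxcr5, Cd79b, Ms4a1 and Blk. Fcer2a (CD23, the low-affinity IgE receptor; chr8:3694125-3694424, minus strand) had the largest fall with LPS of any member in the wild-type-only experiment, and none of the searched motifs lay in its window. Fcmr (the IgM Fc receptor; chr1:130865527-130865826, plus strand) and Cd79a (chr7:24897247-24897546, plus strand) each hold a PU box, the core bound by Ets factors such as PU.1 and SpiB, printed in capitals as its reverse complement. In the windows of Vpreb3 (chr10:75948243-75948274, plus strand) and Blnk (chr19:40994332-40994363, minus strand), capitals mark an octamer, the motif of Oct factors such as Oct-2, the product of Pou2f2. In that of Cd22 (chr7:30879056-30879089, minus strand) they mark a core of the EBF motif. Each line reads 5′ to 3′ on the gene's strand.
Fcer2a: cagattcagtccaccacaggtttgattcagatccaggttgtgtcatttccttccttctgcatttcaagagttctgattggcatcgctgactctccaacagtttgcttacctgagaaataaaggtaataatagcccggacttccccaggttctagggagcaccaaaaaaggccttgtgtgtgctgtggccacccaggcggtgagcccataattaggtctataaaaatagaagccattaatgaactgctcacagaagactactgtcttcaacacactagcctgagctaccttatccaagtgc
Fcmr: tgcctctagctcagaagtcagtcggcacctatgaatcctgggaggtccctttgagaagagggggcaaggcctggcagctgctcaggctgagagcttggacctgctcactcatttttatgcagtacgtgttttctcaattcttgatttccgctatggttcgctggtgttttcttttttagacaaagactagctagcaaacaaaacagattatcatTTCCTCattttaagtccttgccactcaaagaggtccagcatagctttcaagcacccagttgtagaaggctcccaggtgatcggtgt
Cd79a: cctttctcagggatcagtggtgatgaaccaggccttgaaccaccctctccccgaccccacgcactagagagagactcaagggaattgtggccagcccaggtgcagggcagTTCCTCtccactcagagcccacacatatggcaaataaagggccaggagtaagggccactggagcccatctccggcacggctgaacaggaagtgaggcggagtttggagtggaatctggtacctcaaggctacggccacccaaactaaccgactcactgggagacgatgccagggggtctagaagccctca
Vpreb3: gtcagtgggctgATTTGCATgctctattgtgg
Blnk: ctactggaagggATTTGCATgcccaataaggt
Cd22: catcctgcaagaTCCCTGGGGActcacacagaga

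Both strands were searched for 5 motifs, and a match describes letters in the window and not a bound site. The octamer ATGCAAAT was found in 2 of 29 genes (6.897%), against 1.969% of all 27025 genes with a promoter. It lay at -45 to -38 in Vpreb3 and at -130 to -123 in Blnk, counted from 0 at the first transcribed base. The EBF core, TCCC and GGGA with 2 bases between them, was found in 1 of 29 (3.448%, against 1.062% of all genes), at -49 to -40 in Cd22. The PU box GAGGAA, a short motif, was found in 12 of 29 (41.379%, against 31.253% of all genes). The kappaB core, GGG and TTTCC with 2 bases between them, was found in 1, Cd9 (3.448%, against 1.895% of all genes), and the core of the interferon response element, GAAA repeated with 2 bases between, in 2, Fcrla and Ebf1 (6.897%, against 3.993%). No matches overlapped one another in these promoters. Of the 8 genes called lower with LPS below, 6 had a promoter entry, and Fcmr was the only one of those 6 with a match to any of the 5 motifs.

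With LPS, a set of surface and receptor genes of B cells was lower in wild-type spleens of the wild-type-only experiment. The log2 change was -2.85 for Fcer2a, -2.13 for Cd55 (decay accelerating factor, a complement regulator) and -1.30 for Fcmr. It was -1.26 for Cd79b, -1.25 for Ralgps2 (a Ral guanine nucleotide exchange factor) and -1.18 for Cd180 (a Toll-like receptor homologue of B cells). Cxcr5 went the other way and rose by 2.06. Of 32 members tested, 8 fell (25.0%) and 2 rose (6.2%), against 12.1% of all 12055 genes that fell and 15.1% that rose. In either direction 10 of 32 were called (31.2%), a share near the 27.2% of all genes. The median change of the members was -0.42, with 22 of 32 below 0, while the median of all genes tested was -1e-04. Leaving out 1 array could move the count by over 1.5 times: 18 members were called without ABA no-LPS replicate 1 (17 fell and 1 rose), against 26.2% of all genes in that setting, and 6 without control diet no-LPS replicate 2, against 21.34%. Without the 2 arrays of this experiment with high Cpa1, 6 were called, against 19.86% of all genes: Fcer2a, Cd55, Fcmr, Ralgps2, Cd180 and Cxcr5.

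The arrays of both sides did not overlap for 5 of 32 members (15.6%), against 17.4% of all genes. These were Fcer2a, Cd55, Cd79b, Cd180 and Cxcr5. When each array was centred on its median, the median of all genes moved to -0.15. In that setting 14 of 32 members fell and 1 rose, and of all genes 26.12% fell and 12.43% rose. The larger share of falls among the members under centring thus came with a larger share of falls among all genes.

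**Figure D1:**
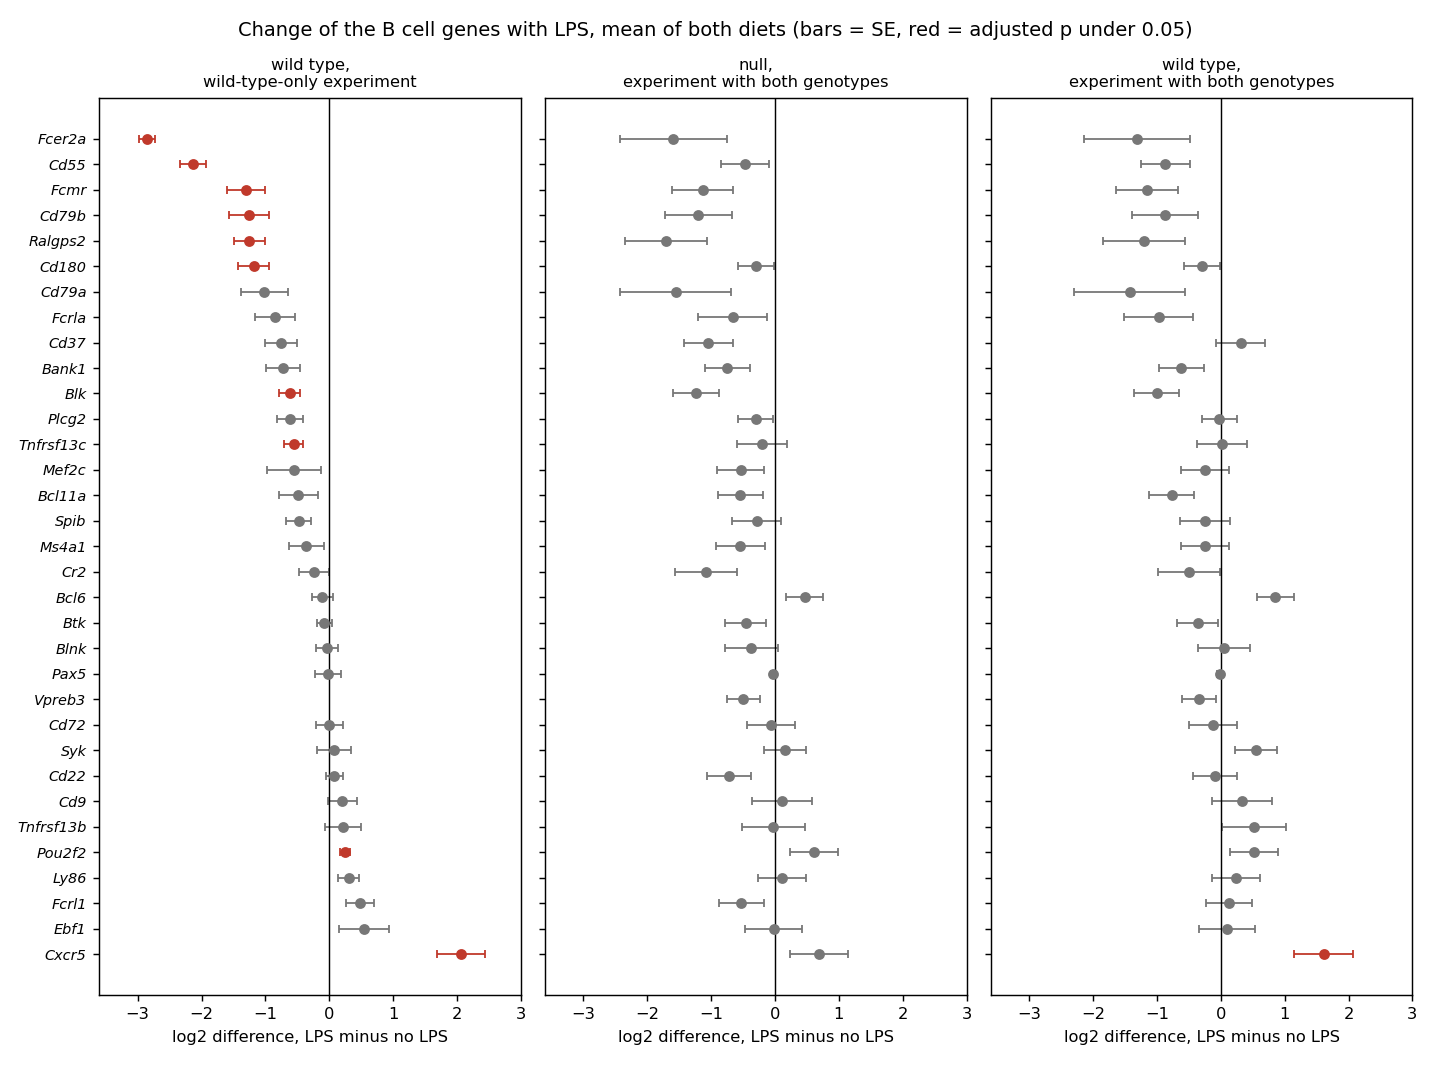
Change of each member with LPS (LPS minus no LPS, mean of both diets, log2 units, bars are the standard error from limma) in wild type of the wild-type-only experiment, in null and in wild type of the experiment with both genotypes. Red points were called; Fcer2a at -2.85 and Cxcr5 at 2.06 mark the ends in the left panel, and 1 point, Cxcr5, is red on the right.

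Among the surface receptors (13 tested, 4 fell, none rose, median change -0.36), Fcer2a gave the largest change. Fcer2a (chr8:3680280-3694174) read 3.49, 3.09, 3.10 and 3.09 on the 4 arrays of ABA with LPS and 3.11, 3.13, 3.13 and 3.13 on the 4 of control diet with LPS. Without LPS it read 5.45 and 6.12 on ABA and 6.18 and 6.26 on control diet. Every LPS array lay below every array without LPS, and 7 of 8 LPS arrays sat between 3.09 and 3.13, a flat low level. The size of the fall rests on that level, and its small SE and p-value rest on it in part. The difference was -2.85 ± 0.12 (SE, limma adjusted p = 1.13e-06). A second Fcer2a probe set with lower values also differed downwards, by -1.94.

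Cd55 (chr1:130429798-130465009) read 9.37, 8.75, 9.24 and 9.65 on ABA with LPS and 9.30, 9.45, 9.16 and 8.66 on control diet with LPS. Without LPS it read 11.01 and 11.52 on ABA and 11.46 and 11.34 on control diet. The groups with and without LPS were apart by more than 1 log2 unit, with no overlap. The difference was -2.13 ± 0.20 (SE, limma adjusted p = 9.94e-05), and the other 2 probe sets of Cd55 differed by -3.01 and -2.02.

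Fcmr (chr1:130865777-130880790) ranged from 7.0 to 9.12 on the 8 LPS arrays (median 8.07) and read 8.87, 9.73, 9.27 and 9.55 on the 4 arrays without LPS. One LPS array, ABA replicate 1, reached into the range without LPS. Its difference was -1.30 ± 0.30 (SE, limma adjusted p = 0.0124). Cd180 (chr13:102693547-102706631) ranged from 6.63 to 7.69 with LPS (median 7.46), against 7.76, 8.79, 8.86 and 8.90 without. The lowest array without LPS stood just above the highest with LPS, and the difference was -1.18 ± 0.24 (SE, limma adjusted p = 0.00720).

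The other surface receptors tested were not called in this comparison. Fcrla (an Fc receptor-like protein inside B cells) changed by -0.85 ± 0.31 (SE, limma adjusted p = 0.0776) and the tetraspanin Cd37 by -0.76 ± 0.25 (limma adjusted p = 0.0554). Ms4a1 differed by -0.36, the complement receptor Cr2 by -0.24 and the inhibitory receptors Cd22 and Cd72 by 0.08 and 0.00. The second Cd22 probe set differed by 0.87, so the probe sets of that gene did not give 1 size. Fcrl1, Ly86 (the partner of Cd180) and the tetraspanin Cd9 differed by 0.48, 0.30 and 0.20. Ly86 thus stood above 0 where Cd180 fell, and the difference between both genes was not tested. Vpreb3, a chain linked to the precursor B cell receptor, read 2.29 on all 12 arrays, the lowest value, and was not tested there.

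Among the receptor complex and its signalling chain (9 tested, 3 fell, none rose, median change -0.62), the calls were Cd79b, Ralgps2 and Blk. Cd79b (chr11:106311341-106314562) ranged from 9.58 to 11.42 with LPS (median 10.60), against 11.47, 12.22, 11.93 and 11.99 without. No LPS array reached the arrays without LPS, and the difference was -1.26 ± 0.31 (SE, limma adjusted p = 0.0174). That call was lost under 4 of 21 other settings, among them leaving out control diet no-LPS replicate 2 or ABA no-LPS replicate 2. Its partner Cd79a ranged from 5.45 to 8.28 with LPS (median 6.71), against 6.97, 8.31, 8.10 and 7.99 without. Those arrays overlapped, and the difference of -1.02 ± 0.37 (SE) was not called (limma adjusted p = 0.0733).

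Ralgps2 (chr1:156804166-156939850) ranged from 7.41 to 9.23 with LPS (median 8.42), against 8.77, 9.63, 9.85 and 9.79 without. The groups overlapped through 1 array on each side, and the difference was -1.25 ± 0.25 (SE, limma adjusted p = 0.00596). Its other 2 probe sets differed by -0.83 and -0.74. Blk (chr14:63372837-63417187), a Src-family kinase of B cells, read between 8.48 and 9.25 with LPS and between 8.98 and 9.65 without, a smaller difference of -0.62 ± 0.17 (SE, limma adjusted p = 0.0247). The Blk call was lost under 5 of 21 other settings, with adjusted p up to 0.114, among them leaving out either control diet no-LPS array or ABA no-LPS replicate 2. Syk, Btk and Blnk differed by 0.07, -0.08 and -0.04, while Plcg2 differed by -0.61 ± 0.20 (limma adjusted p = 0.0537) and the scaffold Bank1 by -0.73 ± 0.26 (limma adjusted p = 0.0726).

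Of the 3 homing and survival receptors, 1 rose and 1 fell. Cxcr5 (chr9:44511787-44526444) read 6.62, 6.78, 6.90 and 6.02 on ABA with LPS and 5.30, 5.95, 6.95 and 7.12 on control diet with LPS. Without LPS it read 3.01 and 4.16 on ABA and 5.17 and 5.24 on control diet. All LPS arrays lay above all arrays without LPS, by little on control diet and by more on ABA, and the difference was 2.06 ± 0.38 (SE, limma adjusted p = 0.00418). Tnfrsf13c (chr15:82221742-82224380) fell by 0.56 (SE 0.15, limma adjusted p = 0.0216), with 11.74 to 12.24 on the LPS arrays and 12.03 to 12.85 without LPS, and its call was lost under 4 of 21 other settings, among them leaving out control diet no-LPS replicate 2. Tnfrsf13b (TACI, a second receptor for BAFF) differed by 0.22 ± 0.28 (SE), which was not called.

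Of the 7 transcription factors 1 was called, and their signed median change was -0.11, with members on both sides of 0. Pou2f2 (chr7:25087350-25180797) rose by 0.25 (SE 0.08, limma adjusted p = 0.0431), at low values of 3.51 to 3.84 with LPS and 3.05 to 3.59 without. Its other 2 probe sets did not move from their lowest levels, and the call was lost under 16 of 21 other settings. Pax5 and Bcl6 differed by -0.02 and -0.11, and Ebf1 by 0.54 ± 0.39 (SE). Spib, Mef2c and Bcl11a were lower by -0.48, -0.55 and -0.48, none of them called. For Bcl11a the 6 further probe sets were lower too, by -0.20 to -1.54.

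**Figure D2:**
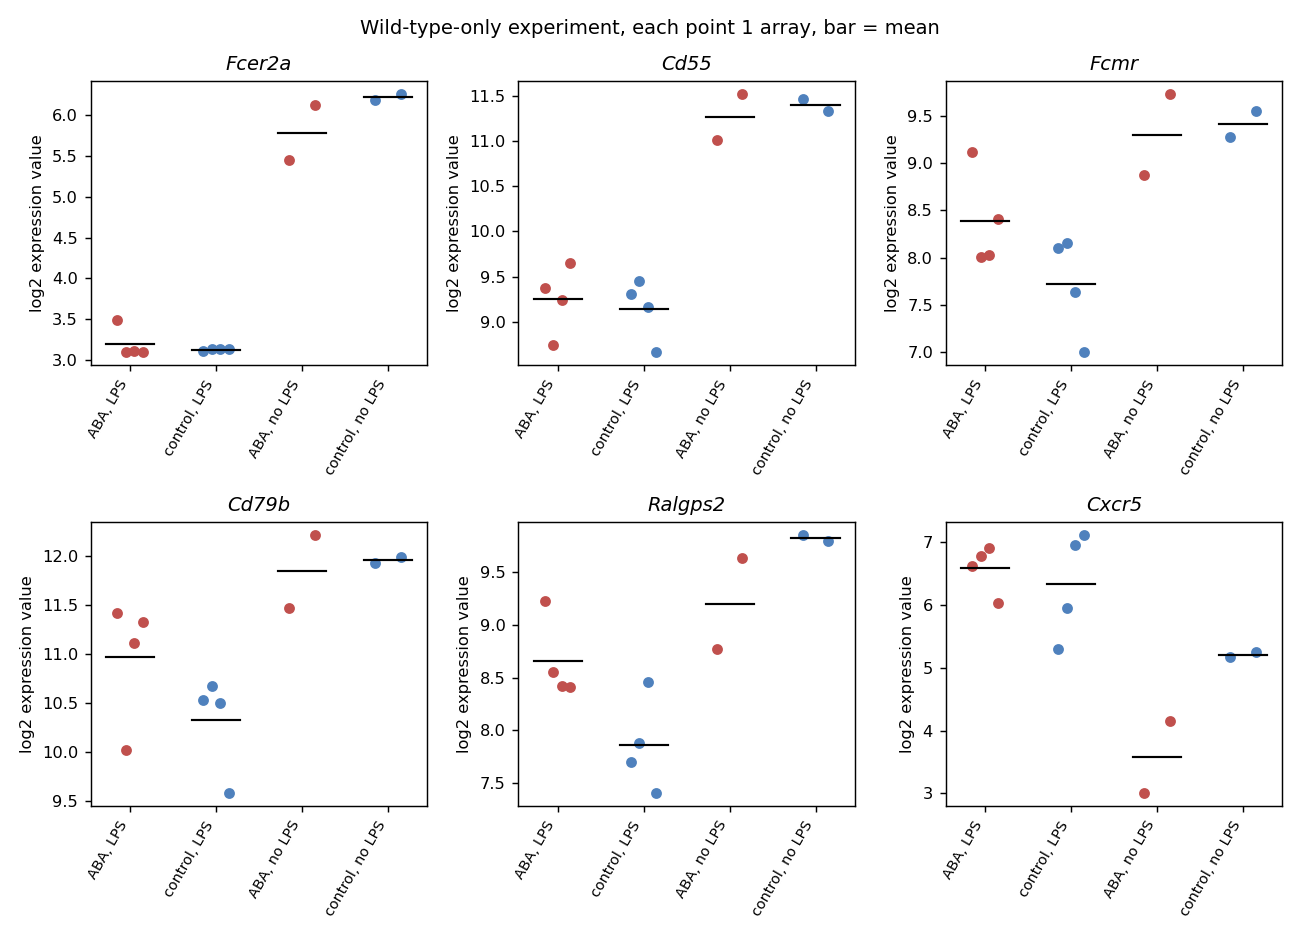
Log2 expression values of 6 members on the 12 arrays of the wild-type-only experiment (points are arrays, red for ABA and blue for control diet, bars are group means). Fcer2a and Cd55 separate fully between LPS and no LPS, and Cxcr5 is lowest on the 2 ABA arrays without LPS, at 3.01 and 4.16.

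In the experiment with both genotypes the same comparison gave few calls. In null mice none of 33 members was called by limma, against 7.40% of all 13377 genes. An unadjusted p under 0.05 was found for 5 of 33 members, against 2970 of the 13377 genes, a larger share. The median change of the 33 members with LPS was -0.47, with 27 of 33 below 0, and the median of all genes was -0.01. In wild-type mice 1 of 33 was called (3.0%, against 14.0% of all genes). At an unadjusted p under 0.05 were 5 of 33 members, against 3660 of the 13377 genes, again a larger share. There the median change was -0.24, with 21 of 33 below 0. Arrays with and without LPS did not overlap for 1 member in null mice, Ralgps2 (3.0%, against 13.5% of all genes), and for none in wild-type mice (17.4% of all genes).

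Cxcr5 was the call in wild-type mice. It read 8.76 and 10.19 on ABA with LPS and 10.27 and 10.76 on control diet with LPS, against 7.21 and 8.92 on ABA without LPS and 8.68 and 8.72 on control diet without LPS. Both sides overlapped by 1 array, and the difference was 1.61 ± 0.46 (SE, limma adjusted p = 0.0487). In null mice Cxcr5 read 9.65, 9.60, 9.09 and 9.49 with LPS and 9.10, 8.09, 9.48 and 8.40 without, a difference of 0.69 ± 0.46 (SE, limma adjusted p = 0.429). The change in null minus the change in wild type was -0.92 ± 0.65 (SE, limma adjusted p = 0.943), so the genotypes were not shown to differ. The wild-type call was close to the threshold: leaving out 1 array ended it for 12 of the 16 arrays, the exceptions being ABA no-LPS replicate 2 and ABA LPS replicate 1 of wild type and both null control diet no-LPS arrays.

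Of the 8 genes that fell in the wild-type-only experiment, 7 also stood below 0 in both genotypes of the other experiment, with wide errors, and none of them was called there. The exception, Tnfrsf13c, differed by -0.21 in null and 0.02 in wild-type mice. Fcer2a differed by -1.59 ± 0.83 in null and -1.31 ± 0.83 in wild-type mice (SE, limma adjusted p = 0.309 and 0.365). In null mice it read 8.39, 9.30, 6.48 and 6.94 with LPS, against 10.14, 8.33, 8.35 and 10.66 without, and in wild-type mice 5.92, 9.24, 8.43 and 8.12 with LPS, against 7.64, 9.59, 9.62 and 10.09 without. The arrays of each genotype overlapped, and Fcer2a had no flat low level here.

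Ralgps2 differed by -1.71 ± 0.64 in null and -1.20 ± 0.64 in wild-type mice (SE, limma adjusted p = 0.154 and 0.274). Blk differed by -1.24 ± 0.36 in null and -1.0 ± 0.36 in wild-type mice (SE, limma adjusted p = 0.0719 and 0.10). Cd79b gave -1.20 and -0.87, and Fcmr gave -1.13 and -1.15, in null and in wild-type mice. Cd55, the second largest fall in the wild-type-only experiment, gave -0.47 and -0.87. Cd180 could be read on few of these arrays, since its probe set was near the lowest value on 8 of 16, as was that of Pou2f2.

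**Figure D3:**
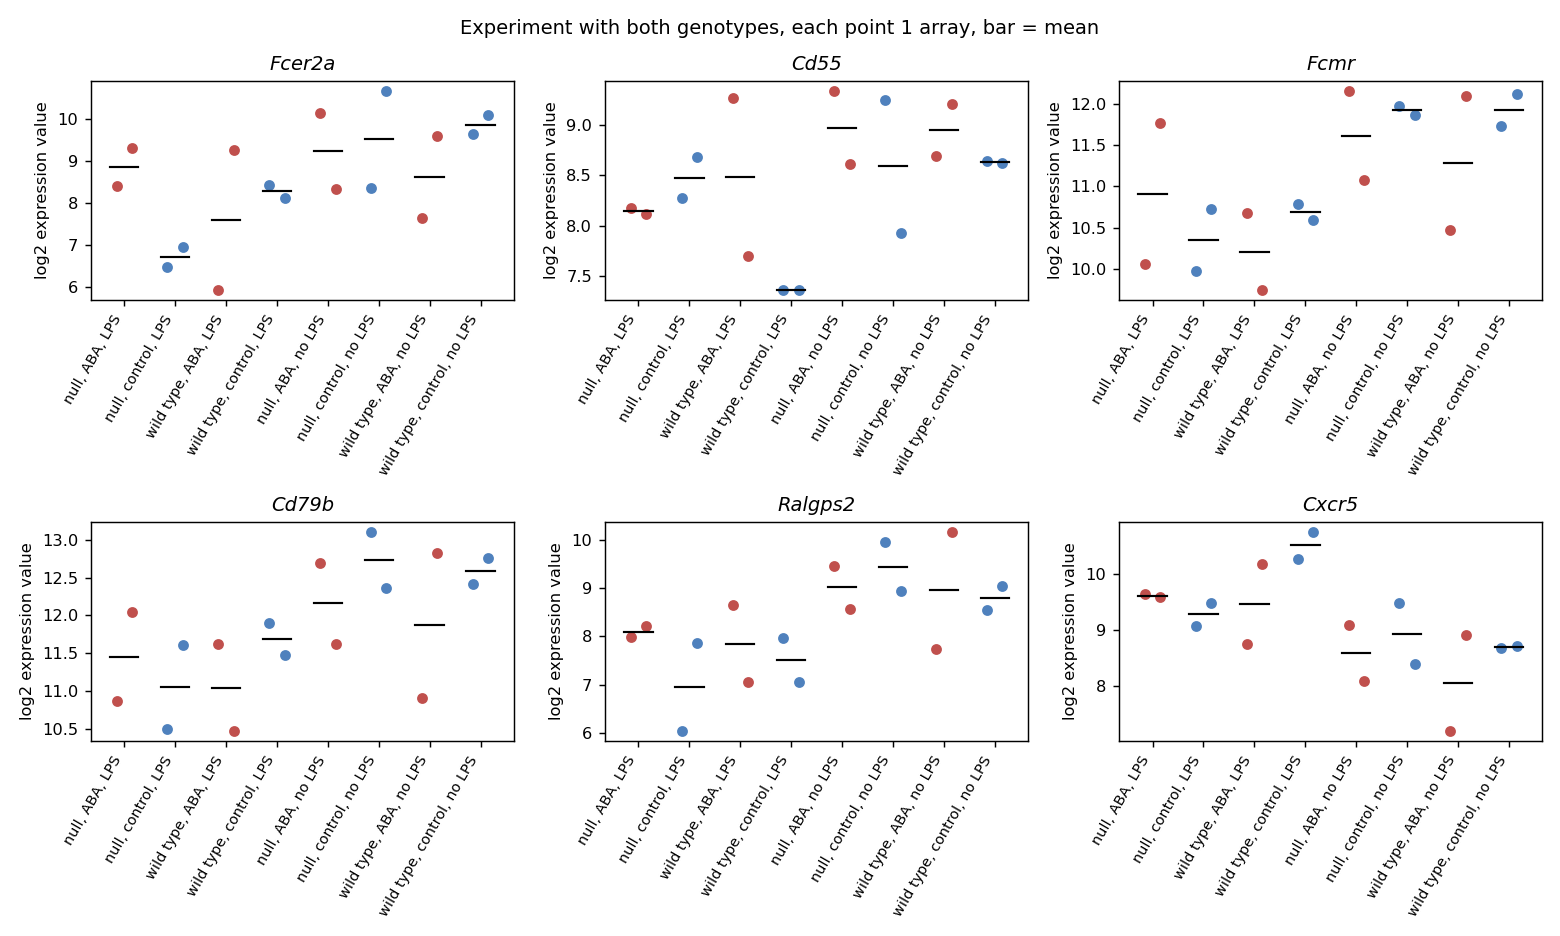
Log2 expression values of the same 6 members on 16 arrays, those of the experiment with both genotypes (points are arrays, red for ABA and blue for control diet, bars are group means of 2). Pairs of a group lie far apart for several genes, such as Fcer2a at 5.92 and 9.24 in wild type with ABA and LPS.

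The direction of change with LPS could be set between comparisons that share no arrays. Null mice and the wild-type-only experiment gave the same direction for 26 of 31 members (83.87%), against 74.54% of all genes. Wild-type mice of both experiments did so for 26 of 31 members (83.87%), against 78.63% of all genes, a share near the background. Both counts include genes near the lowest value in the experiment with both genotypes: Pax5 on all 16 arrays, and Cd180 and Pou2f2 on 8. With the wild-type arrays of both experiments in 1 fit, 9 of 33 members fell and 1 rose. Together that is a share near the 30.87% of all 13455 genes called in either direction. The called members included Bank1 (-0.68 ± 0.20 SE, limma adjusted p = 0.0184) and Fcrla (-0.90 ± 0.30 SE, limma adjusted p = 0.0320).

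No member was called between the genotypes. Between null and wild-type mice with LPS none of 33 was called by limma (0.0299% of all genes were). Of the members 1, Cd37, had an unadjusted p under 0.05, against 604 of 13377 genes. Cd37 read 7.67, 9.41, 7.74 and 8.29 in null mice with LPS and 9.28, 9.65, 9.61 and 9.16 in wild-type mice with LPS. The ranges overlapped by 1 null array, and the difference was -1.14 ± 0.38 (SE, limma adjusted p = 0.819). The second Cd37 probe set gave 7.19 in null and 7.96 in wild-type mice with LPS as means. Without LPS none of 33 was called between null and wild-type mice (0.00748% of all genes). None had an unadjusted p under 0.05, against 283 of 13377 genes. Here 30 of 33 members stood above 0, as did 7991 of the 13377 genes. The median was 0.16 log2 units for the members and 0.02 for all genes. The members' median is small beside the spread of the pairs described below. A difference between genotypes in the change with LPS was called by limma for none of 33 members (0.0299% of all genes). Cd37 was the only member at an unadjusted p under 0.05 (-1.36 ± 0.54 SE, limma adjusted p = 0.943), against 597 of 13377 genes. The Cd37 probe set used changed with LPS by 0.32 in wild-type and -1.04 in null mice. Its second probe set changed by -1.07 and -1.78, so the direction in wild-type mice differed between the probe sets. In this genotype by LPS interaction 27 of 33 members stood below 0, as did 8172 of the 13377 genes (medians -0.23 and -0.07). All 9 members of the receptor and signalling group were among them, between -0.51 and -0.10, with none called. So were 10 of 14 surface receptors, 3 of 3 homing and survival receptors and 5 of 7 transcription factors. Members tended to move together on an array, as described below, so these are not separate observations. Neutrophil markers also stood below 0 for 10 of 10 genes, and erythroid markers above 0 for 10 of 10. Pancreas markers stood below 0 for 6 of 6 genes (median -4.13), with high Cpa1 on an array of each null group without LPS. The erythroid markers described below stood higher in null than in wild-type mice with LPS for 10 of 10 genes, by a median of 2.87 log2 units. Without LPS they stood lower in null mice for 10 of 10 genes (median -0.83), while macrophage markers stood higher for 12 of 12 (median 0.26). Pancreas markers stood higher in null mice without LPS too, for 6 of 6 genes (median 4.14). The part of these cell types and of pancreas RNA in the members' differences was not tested.

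No member was called between the diets either. In the wild-type-only experiment with LPS, ABA against control diet gave no call among 32 members by limma (0.108% of all genes). Against 1111 of 12055 genes, 5 of 32 members had an unadjusted p under 0.05: Fcrla, Ralgps2, Cd22, Cd79a and Cd37. All 5 were higher on ABA. Fcrla read 8.91, 9.05, 8.24 and 8.71 on ABA and 7.93, 7.96, 7.60 and 6.83 on control diet, with no overlap, a difference of 1.15 ± 0.36 (SE, limma adjusted p = 0.356). Cd79a read 8.28, 6.89, 6.82 and 7.54 on ABA and 6.46, 6.54, 6.59 and 5.45 on control diet, a difference of 1.12 ± 0.43 (SE, limma adjusted p = 0.464). Fcrla, Cd79a and Cd22 were the 3 of 32 members (9.4%) whose arrays did not overlap, against 6.46% of all genes. Over all members the median was 0.24, with 27 of 32 above 0, and the median of all genes was 0. In the same comparison 10 of 10 erythroid markers (median -0.53), 12 of 12 macrophage markers (median -0.40) and 7 of 7 endothelial and stromal markers (median -0.27) stood below 0, with none called by limma and 0, 2 and 2 of them at an unadjusted p under 0.05. Their part in the members' shift was not tested.

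Without LPS the members pointed the other way. ABA against control diet gave no call among 32 members by limma (0.514% of all genes). At an unadjusted p under 0.05 were 3 of 32 (Cd9, Cxcr5 and Pou2f2), a share near that of all genes (1095 of 12055). The median of the 32 members was -0.31, with 28 of 32 below 0. The arrays did not overlap for 9 of 32 (28.1%), a share near the 27.5% of all genes in this comparison of 2 arrays with 2. The 2 ABA arrays differed from each other: ABA no-LPS replicate 1 was below replicate 2 for 32 of 32 members, by a median of 0.87 log2 units. Cxcr5 read 3.01 and 4.16 on ABA and 5.17 and 5.24 on control diet, a difference of -1.62 ± 0.62 (SE, limma adjusted p = 0.431). Without ABA no-LPS replicate 2, 6 members were called lower on ABA (Cd72, Cd9, Cr2, Fcer2a, Ms4a1 and Pou2f2), against 9.73% of all genes called in either direction. That setting leaves replicate 1, the array with the highest erythroid mean of its experiment, as the only one of its group, and its spread is assumed to be that of the other groups.

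The change with LPS on ABA minus that on control diet gave no call by limma among 32 members (0.307% of all genes). It gave 3 members with an unadjusted p under 0.05 (Ralgps2, Fcrla and Cxcr5), against 815 of 12055 genes. Its median was 0.63, with 31 of 32 above 0, against 0.01 over all genes, and it uses the same 2 ABA arrays without LPS. Without ABA no-LPS replicate 2, 4 members were called in it (Cd72, Cd9, Fcer2a and Fcrla), against 7.673% of all genes, again with replicate 1 alone in its group and the spread taken from the other groups. In the experiment with both genotypes, ABA against control diet gave no call by limma among 33 members in null mice (0% of all genes). None of them had an unadjusted p under 0.05, against 419 of 13377 genes. In wild-type mice this diet comparison gave no call (0.0299% of all genes). There 2 members had an unadjusted p under 0.05, against 987 of 13377 genes: Cd79a, at -2.76 ± 0.87 (SE, limma adjusted p = 0.476), and Pou2f2.

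Array by array, the members tended to move as a block inside a group. In wild-type mice on ABA without LPS in the experiment with both genotypes, 30 of 33 members were lower in replicate 1 than in replicate 2, by a median of 1.42 log2 units. In null mice on ABA without LPS, 31 of 33 were higher in replicate 1, by a median of 0.87. Replicate 2 of that group was the array with the highest Cpa1, at 13.50. In null mice on control diet with LPS, 30 of 33 were lower in replicate 1, by a median of 0.55. Other pairs were close: in wild-type mice on control diet with LPS, 18 members were higher and 14 lower in replicate 1. In all of these pairs the median difference between 2 arrays of 1 group was of the order of the median change with LPS, or above it, except in the last. How many of all genes moved the same way within these pairs was not counted.

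**Figure D4:**
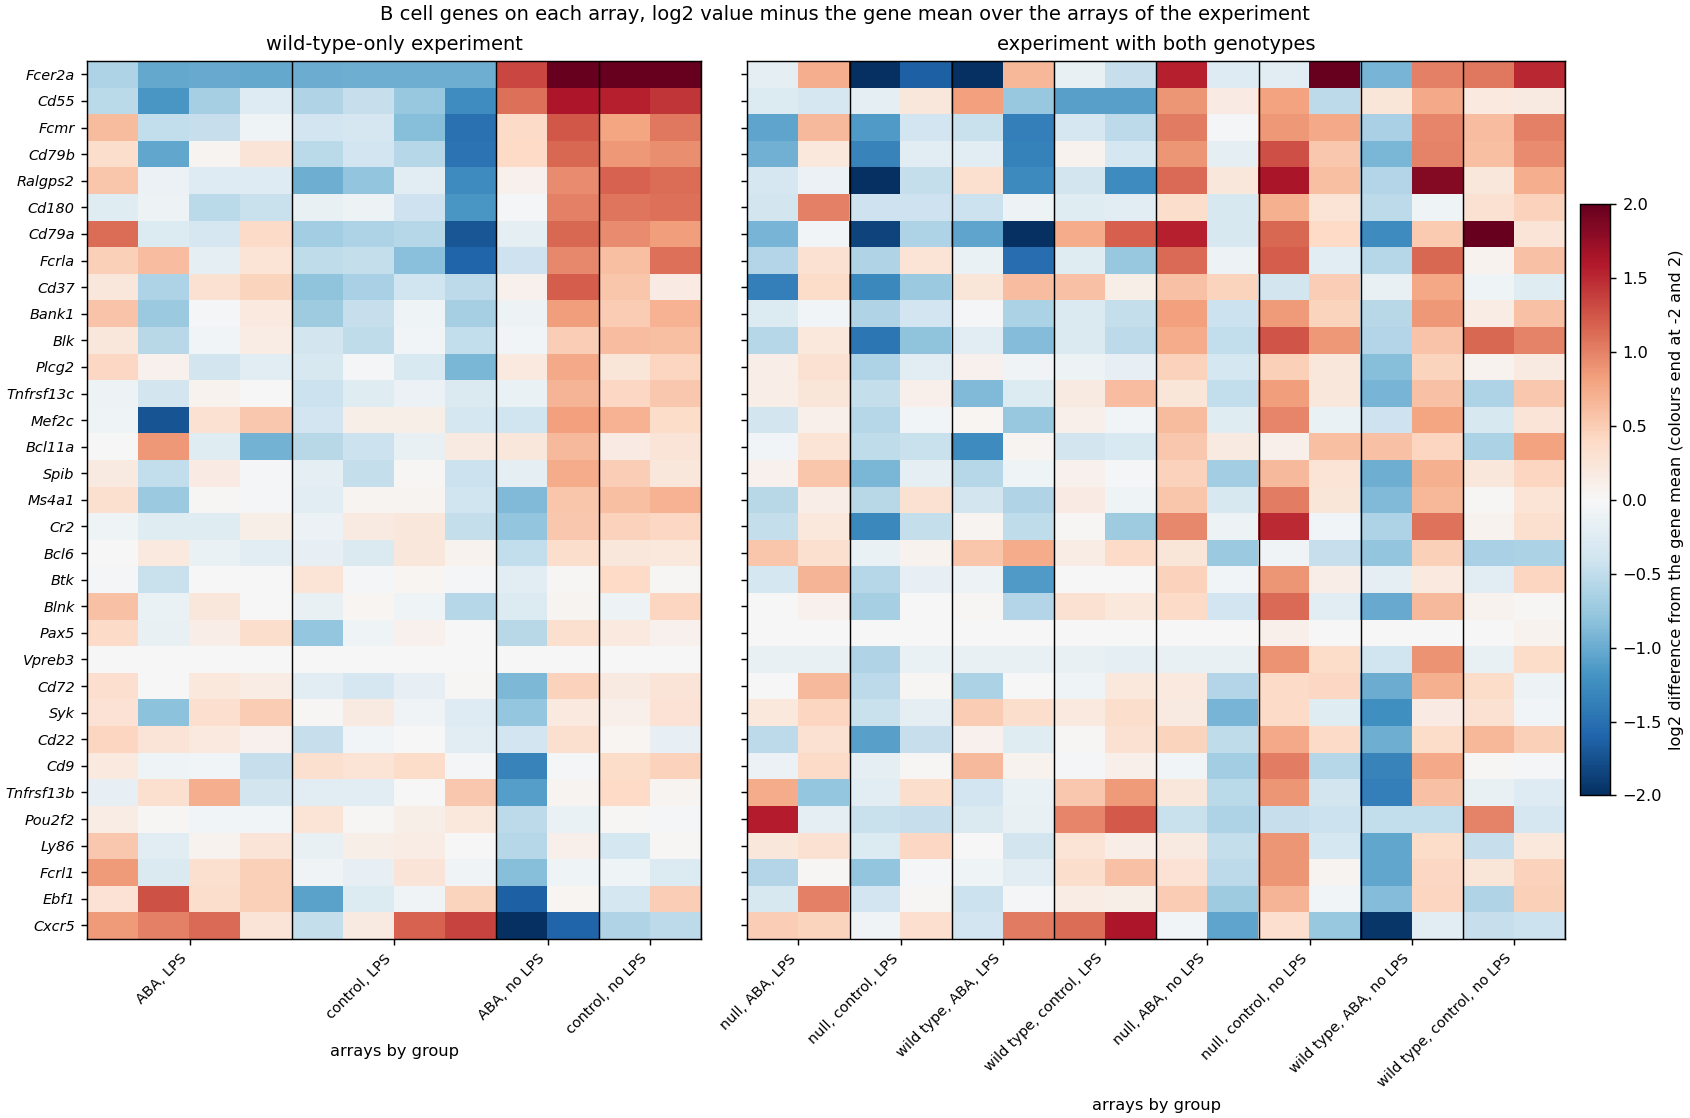
Log2 value of each member on each array minus the mean of that gene over its experiment (red above, blue below, colours end at -2 and 2), arrays in columns by group. Whole columns are pale or dark together, such as ABA no-LPS replicate 1 in the left panel, where 32 of 32 tested members are below replicate 2.

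Markers of other spleen cells moved with the same arrays. Of the erythroid list, 10 of 12 genes had a probe set. Its median change with LPS was -2.84 in the wild-type-only experiment (6 of 10 fell), -1.56 in null mice (none of 10 called by limma, and none at an unadjusted p under 0.05) and -5.47 in wild-type mice of the experiment with both genotypes (9 of 10 fell). Its mean per array ranged from 4.51 to 7.02 with LPS and from 5.91 to 11.01 without in the wild-type-only experiment, from 7.52 to 10.85 with LPS and from 7.56 to 12.70 without in null mice, and from 5.37 to 7.32 with LPS and from 10.26 to 13.02 without in wild-type mice. No erythroid mean was at the lowest value. In 6 of 6 groups of 2 without LPS, the array with the higher erythroid mean had the lower mean of the B cell genes, and in 2 of 4 with LPS, a comparison chosen after the values were seen. Some gaps were small. Wild-type mice on control diet without LPS had erythroid means of 12.19 and 12.11, and the wild-type-only control diet pair had B cell means of 8.81 and 8.85. In that last pair, and in both null pairs without LPS, the array with the higher erythroid mean also had high Cpa1. On ABA without LPS in the wild-type-only experiment, replicate 1 had 11.01 for the erythroid and 8.0 for the B cell mean, and replicate 2 had 5.91 and 8.91. The part of red cell or pancreas RNA in the members' differences was not tested.

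The T cell list (12 of 14 genes with a probe set) fell alongside in the wild-type-only experiment: 5 of 12 fell with LPS and none rose, with a median of -0.65, beside -0.42 for the B cell genes. Its mean per array ranged from 6.86 to 7.77 with LPS and from 7.13 to 8.40 without. In null mice 1 of 12 fell (median -0.49) and in wild-type mice of that experiment none was called by limma, with 2 at an unadjusted p under 0.05 (median -0.13). The neutrophil list (10 of 12 genes) had a median of -0.12 in the wild-type-only experiment, 1.61 in null mice and 1.93 in wild-type mice of the experiment with both genotypes. The part of cell composition in the members' changes was not tested.

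**Figure D5:**
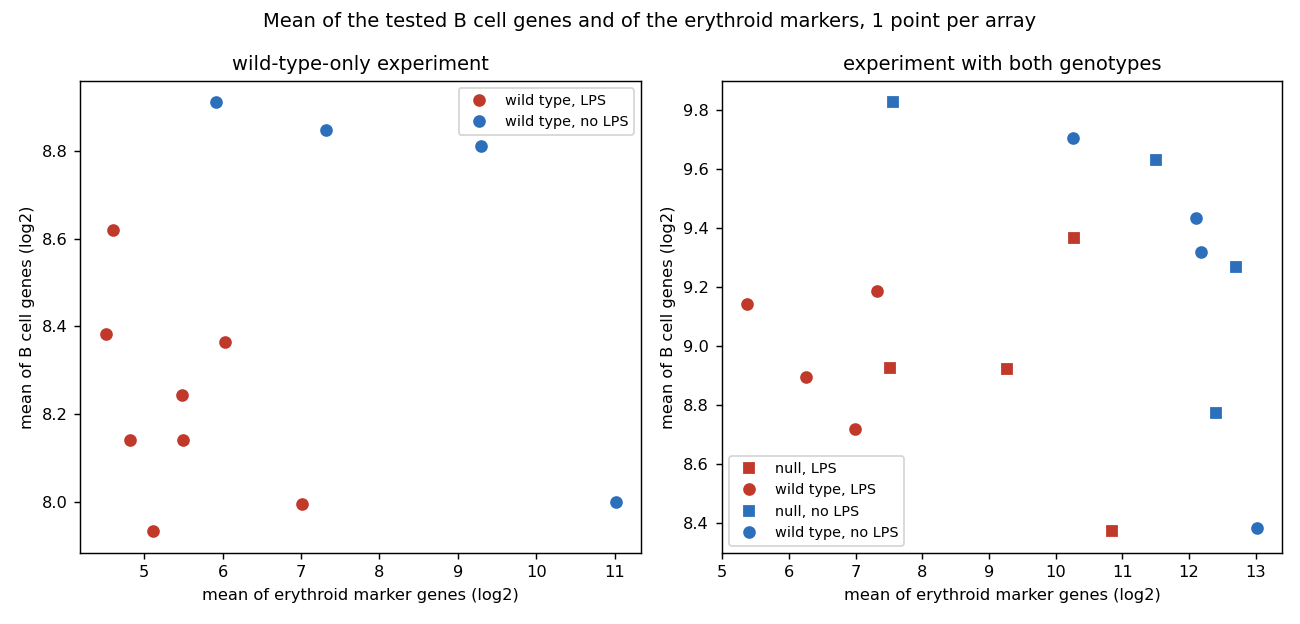
Mean of the tested B cell genes against the mean of the 10 erythroid markers, both in log2 units, 1 point per array (squares null, circles wild type, red with LPS, blue without). The array furthest right in the left panel is ABA no-LPS replicate 1, at 11.01 for the erythroid and 8.0 for the B cell mean.

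Other genes of B cell receptor signalling and the B lineage, 38 of 40 listed with a probe set, were counted beside the members, and the difference between both lists was not tested. In the wild-type-only experiment 10 of 38 rose and 11 fell with LPS (55.3% called, against 27.2% of all genes). This list was chosen with earlier results of these data known, so the difference between those shares cannot be read as a test. The largest rises were Cd69, an early activation antigen (3.40 ± 0.53 SE, limma adjusted p = 0.00171), Cd40, the receptor for T cell help (1.89 ± 0.31), the inhibitory Fc receptor Fcgr2b (1.29 ± 0.23) and Irf4, a factor of activated B cells (1.2 ± 0.37). The largest falls were Cd24a (-1.62 ± 0.34), the inhibitory lectin Siglecg (-1.32 ± 0.27), the kinase Prkcb (-1.14 ± 0.19) and the protease Ctsh (-1.07 ± 0.16). Cd69 and Cd40 also rose with LPS in null mice, by 2.78 ± 0.53 and 2.45 ± 0.49, and in wild-type mice of the same experiment, by 3.62 ± 0.53 and 3.37 ± 0.49. In those wild-type mice Cd83 rose by 2.12 ± 0.44 and Cd24a fell by 2.33 (SE 0.41), so 3 of 38 rose and 1 fell (10.5%, against 14.0% of all genes), and in null mice 2 of 38 rose (5.3%, against 7.40%). Cd69 and Cd40 are found on other leukocytes as well as on B cells. None of the 38 was called in a diet or genotype comparison by limma.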

How the data were processed

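The authors deposited log2 expression values of 45101 probe sets on 28 Affymetrix mouse arrays. Every array of the experiment with null mice ends at a lowest value of 2.24, and every other array ends at 2.29, so the experiments were read as normalised separately. GCRMA and limma are named, without versions, per the submitters' processing notes. Beyond the names of these tools, the background and normalisation steps behind the values are not given in the sources used here. Of the probe sets, 34945 name 1 gene, 932 several and 9211 none, beside 64 controls, and 34741 matched by Entrez number.

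From these values, the probe set with the highest mean over all arrays was kept for each gene, and a gene was tested when it lay above the 40th percentile of its array on 2 or more arrays. Each experiment was fitted with limma 3.58.1 in R 4.3.3 with 1 mean per group (12055 and 13377 genes, 8 residual degrees of freedom in each), and p-values were adjusted by Benjamini-Hochberg over all genes tested. Tables and plots used Python 3.11.15, pandas 2.3.3 and matplotlib 3.10.9. The fit was tested on simulated data.

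The members and gene lists were chosen with earlier results of these data known. Per-array values are given for the members called with LPS that changed most in each role group. For other B lineage genes, up to 4 called genes in each direction are named. Members outside that rule with per-array values (Cd79a, Cd37, Fcrla) were chosen after their values were seen. Replicate numbers come from the sample titles: deviations of same-numbered arrays correlated above 0.1 in 4 of 14 pairs of the wild-type-only experiment and 20 of 56 of the other, so the numbers were not used as pairs. No 2 arrays held identical values.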

Additional observations from a re-analysis of the deposited data

Results flagged for a closer look

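In the wild-type-only experiment, 6 values on 4 arrays stood apart from the other 3 of their group, among 64 sets of 4 values examined (1 member in 1 group each), where chance alone marks about 1 in 20. On ABA with LPS, replicate 2 read 8.37 for the kinase Syk, against 9.48 to 9.70 on the others, and 5.0 for the kinase Btk, against 5.42 to 5.43. On the same diet with LPS, replicate 1 read 3.49 for Fcer2a, against 3.09 to 3.10. On control diet with LPS, replicate 4 read 5.45 for Cd79a, against 6.46 to 6.59, and 9.58 for its partner Cd79b, against 10.5 to 10.67. On control diet with LPS, replicate 1 read 3.11 for Fcer2a, against 3.13 on the others, a gap of little size at the flat low level of that gene.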

How the results depend on the processing

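In the wild-type-only experiment, Fcer2a, Cd55, Cd180 and Cxcr5 were called with LPS under 21 of 21 other settings, and no member named there changed direction. The count of 10 members called became 4 with a replicate block, 6 without the arrays with high Cpa1, and 6 to 18 when 1 array was left out. In wild-type mice of the experiment with both genotypes, the count of 1 became 3 with median centring, 0 with no filter, 2 with the mean of all probe sets, 0 with a replicate block, 0 without the arrays with high Cpa1, 2 with a term for high Xist, 10 with both experiments in 1 fit, and 0 to 2 when 1 array was left out. In null mice the count of 0 became 1 with median centring, 1 with the 60th percentile filter and 1 without the arrays with high Cpa1 (Blk each time), and 0 to 1 when 1 array was left out. ABA against control diet without LPS gave 0 to 6 and the diet by LPS interaction 0 to 4 when 1 array was left out, the higher counts without ABA no-LPS replicate 2. Groups of 2 arrays and values at the lowest level of the array limit what small changes can be seen. The cause of these shifts was not tested.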
